A study of Mus musculus with 6 samples.

Results

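The mRNAs of the cytosolic ribosomal proteins, the protein parts of the large (60S) and small (40S) ribosomal subunits, were followed in brown adipose tissue. Members were the rows of the gene count table whose symbol is Rpl or Rps plus a number with at most one closing letter a, x or l, or is Rplp0, Rplp1, Rplp2 or Rpsa. Names with -ps (processed pseudogenes) and the Rps6k kinases were left out; the rule goes by name, and GENCODE M21 annotates 1 member, Rps4l, as a transcribed processed pseudogene. The rule took 81 of 24062 symbols, 49 of the large and 32 of the small subunit, and used no measured value. The tissue came from 3 mice labelled FAM195A knockout and from 3 mice labelled FAM195A heterozygous, all males of the C57BL/6 strain aged 12 weeks. No wild-type group was analysed here, and the sources used here give neither how the allele was made nor the housing temperature. FAM195A is described by the series as a stress granule protein that binds RNA and is needed for heat production in the cold.

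Cytosolic ribosomes translate every mRNA that leaves the nucleus, and each ribosome carries, as a rule, a single copy of each ribosomal protein, so their mRNAs are usually made in step. In vertebrates these mRNAs begin with a run of pyrimidines, the 5′ terminal oligopyrimidine (TOP) tract, through which the kinase mTORC1 and the protein LARP1 set their translation and stability. Several members have paralogs used in particular tissues, such as Rpl3l in skeletal muscle and heart and Rpl10l and Rpl39l in the testis. Brown fat makes heat with Ucp1, an uncoupling protein of its many mitochondria, most of whose proteins are made on cytosolic ribosomes.

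Depth, in reads counted in genes, ran from 22418031 to 25084627 in the knockout-labelled libraries and from 18781401 to 20471963 in the heterozygous-labelled ones. Genes held 51.0% to 58.3% of the reads in the knockout-labelled libraries and 43.9% to 48.4% in the heterozygous-labelled ones. Reads with several alignments made up 17.6% to 19.8% in the knockout-labelled and 21.8% to 23.8% in the heterozygous-labelled libraries. All 14 brown adipocyte markers were detected, and Ucp1 stood at 4390, 5693 and 1647 CPM (the gene count scaled to a common library size, with TMM factors for composition) in knockout 1, 2 and 3 and at 4898, 5290 and 2963 CPM in heterozygous 1, 2 and 3. Skeletal muscle transcripts were present too: the 26 markers summed to 7520, 4430 and 4280 CPM in the knockout-labelled libraries and to 12000, 27500 and 35200 CPM in the heterozygous-labelled ones. The targeted transcript, Fam195a, did not bear out the labels, at 50.5, 82.0 and 81.3 CPM in the knockout-labelled libraries and 69.0, 70.5 and 103 CPM in the heterozygous-labelled ones (log2 fold change -0.18, edgeR adjusted p = 0.896). Directions are therefore those of the libraries labelled knockout against those labelled heterozygous. The titles of knockout 1 and 2 and heterozygous 1 and 2 begin with RF and those of knockout 3 and heterozygous 3 with RE, a prefix that the labels do not explain.

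Many of the members' start sites carried a pyrimidine run. RefSeq's promoter table (GRCm38.p6) held 60 of the 81 members, and windows from 30 bases before to 20 bases after the listed start were searched for an unbroken run of at least 8 C or T on the gene's own strand. Such a run was found in 31 of the 60 members (51.7%), against 22.9% of all 27025 genes in the table and 23.5% of the 9991 that were also tested here. The sequences below show that run in capitals for the 4 members with the longest runs other than Rpl34 and for Rpl4, one of the most highly counted members. Rplp0, which encodes the base of the ribosomal stalk, is shown as a member without a run. They lie at chr2:26910777-26910826 on the plus strand (Rpl7a), chr7:109519165-109519214 on the plus strand (Rpl27a), chr2:39005112-39005161 on the minus strand (Rpl35), chr14:18270967-18271016 on the minus strand (Rpl15), chr9:64173357-64173406 on the plus strand (Rpl4) and chr5:115559437-115559486 on the plus strand (Rplp0), each printed 5′ to 3′.
Rpl7a: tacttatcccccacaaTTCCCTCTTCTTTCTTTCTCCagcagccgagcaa
Rpl27a: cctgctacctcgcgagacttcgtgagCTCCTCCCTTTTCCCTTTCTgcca
Rpl35: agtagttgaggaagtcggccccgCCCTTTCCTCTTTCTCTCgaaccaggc
Rpl15: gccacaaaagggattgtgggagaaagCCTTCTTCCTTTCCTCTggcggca
Rpl4: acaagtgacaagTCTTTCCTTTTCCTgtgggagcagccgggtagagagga
Rplp0: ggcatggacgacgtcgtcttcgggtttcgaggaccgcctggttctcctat
The runs are 21 bases long in Rpl7a, 20 in Rpl27a, 18 in Rpl35, 17 in Rpl15 and 14 in Rpl4, and a listed start is not always the base where transcription begins. In the whole table entry of 300 bases, the letters CCGGAAG, which ETS-family factors such as GABP bind, were found on either strand in 25 of 60 members (41.7%), against 9.93% of all genes and 19.3% of tested genes. Their reverse complement opens with pyrimidines, so it can overlap a run. The letters AAGATGGC, which YY1 binds, were found in 5 members (8.33%), against 5.07% of tested genes.

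The members together took a similar part of the libraries under both labels. They held 0.96%, 1.24% and 1.13% of the gene counts in knockout 1, 2 and 3, against 1.08%, 1.02% and 1.31% in heterozygous 1, 2 and 3. The means were 1.11% ± 0.139 in the knockout-labelled and 1.14% ± 0.155 in the heterozygous-labelled libraries (SD, n = 3 each), and the groups overlapped, with the lowest library among the knockouts and the highest among the heterozygotes. Summed CPM came to 9643, 12091 and 12201 in the knockout-labelled libraries and 10788, 10225 and 12417 in the heterozygous-labelled ones. The highest library was 1.29-fold above the lowest, and the ratio of the label means, knockout over heterozygous, was 1.02.

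**Figure D1:**
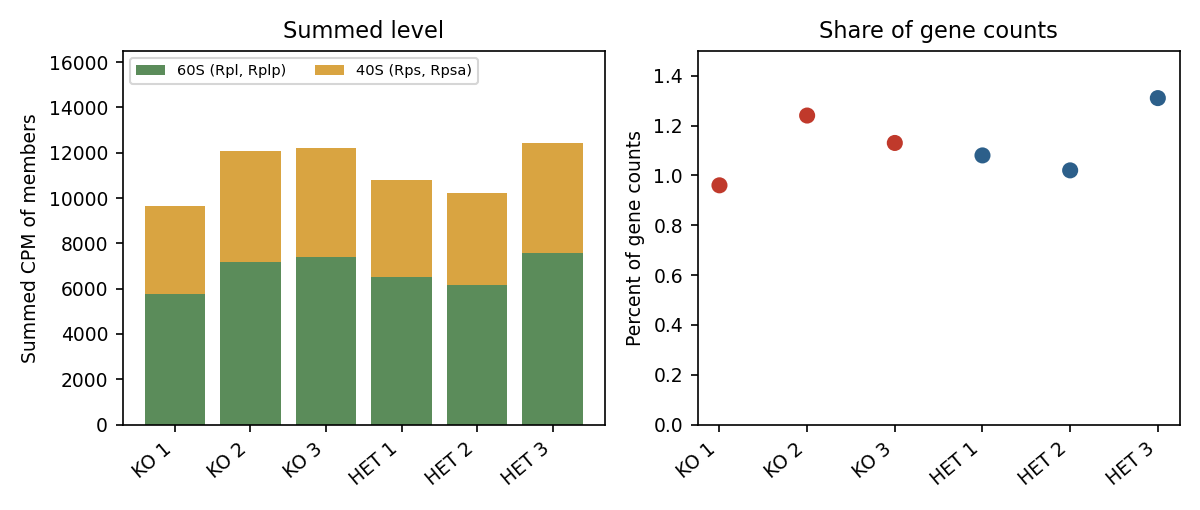
Left, summed CPM of the 81 members in each library, stacked by subunit; right, the members' percent of all gene counts, 1 point per library (red knockout, KO; blue heterozygous, HET). KO 1 was lowest and HET 3 highest on both scales, and the labels overlapped.

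The balance of the subunits varied little. Large-subunit mRNAs summed to 1.47, 1.45 and 1.53 times the small-subunit mRNAs in knockout 1, 2 and 3, against 1.51, 1.52 and 1.55 times in heterozygous 1, 2 and 3. The means were 1.49 ± 0.0414 and 1.53 ± 0.0211 (SD, n = 3 each), and knockout 3 lay within the heterozygous range. The ratio spanned 1.07-fold over the 6 libraries, less than the 1.29-fold span of the summed level.

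Within each label the members moved from mouse to mouse as a block. Each of the 77 members that passed the filter on low counts (45 of the large and 32 of the small subunit) was set against its own mean over the 3 libraries of its label, on the log2 CPM scale. The median deviation was -0.22, 0.11 and 0.11 in knockout 1, 2 and 3 and -0.03, -0.13 and 0.15 in heterozygous 1, 2 and 3. Only 3 of 77 members lay above their label mean in knockout 1, but 71 did in knockout 2 and 68 in knockout 3. In the heterozygous libraries 22, 5 and 73 members lay above it. Of all 13300 genes tested, between 50.3% and 52.8% lay above their label mean in any library, a share that the scaling largely sets. Of 715 other genes with a transcript under 800 bases, 213, 513 and 402 lay above it in knockout 1, 2 and 3. In heterozygous 1, 2 and 3 these were 368, 312 and 407. The deviations of a gene within a label sum to 0, so the counts of the libraries depend on each other. Large- and small-subunit members shared the movement, with medians of -0.22 and -0.23 in knockout 1. Both RE-titled libraries, knockout 3 and heterozygous 3, were among those with high members. Among the RF-titled libraries alone, the median deviation was -0.17 in knockout 1 and 0.17 in knockout 2, but only 0.04 in heterozygous 1 and -0.04 in heterozygous 2. Scaled by library size only, knockout 3 was at 0.03.

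**Figure D2:**
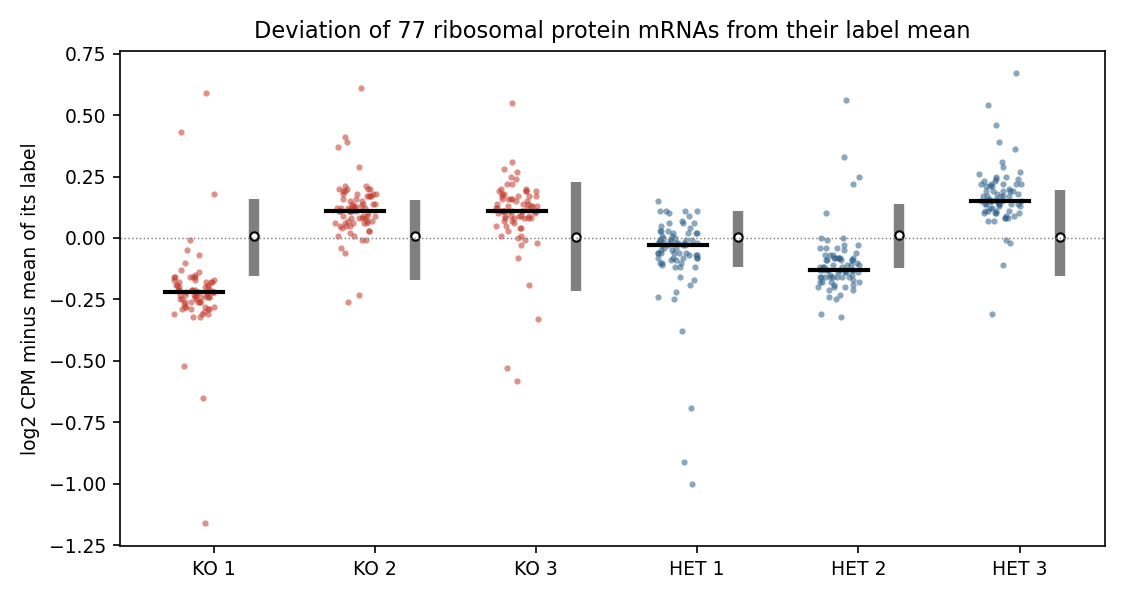
Each point is 1 of 77 ribosomal protein mRNAs, drawn as its log2 CPM minus its mean over the 3 libraries of its label; black bars are the members' medians and grey bars with white dots the middle 50% and the median of all genes tested. The members sit below 0 in KO 1 and HET 2 and above 0 in KO 2, KO 3 and HET 3, while the median of all genes stays near 0.

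The block was narrow. The deviations of 45 of 77 members (58.4%) stayed within 0.1 of the members' median in all 6 libraries, which 221 of 13300 tested genes (1.66%) did. The pattern was drawn from the members themselves, so these shares describe how closely they kept together and test nothing. The largest single pattern in a set (its first principal component) held 64.2% of the members' variation within labels, against 53.5% for all genes tested. With a mean of at least 10 CPM these were 69.4% for members and 59.0% for all genes. Of the 75 members with a mean of at least 10 CPM, 50 had their lowest value in knockout 1 and 16 in heterozygous 2. Among all tested genes with such a mean, 14.7% had their lowest value in knockout 1 and 10.9% in heterozygous 2. Highest values fell in heterozygous 3 for 29 members, in knockout 2 for 27 and in knockout 3 for 18. For all these tested genes the shares were 15.5%, 23.4% and 24.2%, so in knockout 3 the members were close to all genes. Over the 75 members, the median coefficient of variation across the 6 libraries was 12.2%, and 62 were under 15%. For the 8597 tested genes with a mean of at least 10 CPM the median was 15.4%. These genes were not matched to the members in level.

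Other groups of genes moved with the block in part. The 715 other genes with a transcript under 800 bases, close to the median member length of 681 bases, had median deviations of -0.13, 0.10 and 0.05 in the knockout-labelled and 0.01, -0.03 and 0.04 in the heterozygous-labelled libraries. The 5537 other genes of over 3000 bases had 0.06, -0.07 and 0.01, and 0.01, 0.02 and -0.02. The share of the members' movement that goes with transcript length was not tested. For 19 TOP mRNAs that encode no ribosomal protein, such as elongation factors, the medians were -0.13, 0.05 and 0.13 in knockout 1, 2 and 3 and -0.06, 0.00 and 0.05 in heterozygous 1, 2 and 3. The 7 tested ribosomal proteins outside the naming rule had -0.19, 0.09 and -0.04 in knockout 1, 2 and 3 and 0.05, -0.06 and 0.05 in heterozygous 1, 2 and 3, unlike the members in sign in knockout 3 and heterozygous 1. Markers of some other cells varied more. Fibroblast markers had -0.30, -0.13 and 0.43 in knockout 1, 2 and 3 and -0.07, -0.32 and 0.40 in heterozygous 1, 2 and 3. Macrophage markers had -0.06, -0.34 and 0.39 in the knockout-labelled and 0.11, -0.69 and 0.59 in the heterozygous-labelled libraries. White adipocyte markers had -0.62, -0.14 and 0.96 in the knockout-labelled and -0.37, 0.04 and 0.64 in the heterozygous-labelled libraries. These 3 sets were high in both RE-titled libraries, as the members were, and low in knockout 2, where the members were high. Endothelial markers had 0.01, 0.09 and -0.07 in the knockout-labelled and -0.01, 0.16 and -0.21 in the heterozygous-labelled libraries, low in both with RE titles. Skeletal muscle markers had 0.54, -0.24 and -0.23 in the knockout-labelled and -0.92, 0.28 and 0.66 in the heterozygous-labelled libraries. The part of other cells and of the title prefix in the members' movement was not tested. In these whole-tissue samples, fewer cells of a type and less RNA per cell cannot be told apart.

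Levels between members are compared per kilobase of a single annotated transcript per gene, which need not be its principal one. The median over the 78 members with counts in all 6 libraries was 166 CPM per kb. Rps24, a small-subunit protein mutated in some Diamond-Blackfan anaemia in humans, was highest by this length at 840 CPM per kb, next to the stalk protein Rplp2 at 819. Its counted level was 377, 458 and 381 CPM in knockout 1, 2 and 3 and 422, 369 and 353 CPM in heterozygous 1, 2 and 3, and the labels overlapped. Per kilobase, Rps24 ranged from 755 to 978 CPM over the 6 libraries and Rplp2 from 653 to 936, so their order is within the spread. Below both, and reaching at most 580 CPM per kb in a library, came the partner stalk protein Rplp1 at 447, Rpl19 of the large subunit at 393, Rps15 at 385 and Rps12 of the small subunit at 384 CPM per kb. Among members counted in all libraries, the lowest were Rpl34 at 0.594, Rps27 at 1.40, the testis paralog Rpl39l at 2.78, Rps4l at 25.9, Rpl3l at 26.0 and Rps20 at 28.2 CPM per kb. The transcript taken for Rps20, at 3706 bases, is the longest among those of the members, and the gene's mean count of 105 CPM is not low for a member. This order depends on the length used. With the union of all annotated exons as the length, Rps24 came to 62.9 CPM per kb, rank 40 of the members, and Rplp2 to 166, rank 10, while Rplp1 was highest at 447. That length kept 3 of the 6 highest members, Rplp1, Rps15 and Rpl19, and 4 of the 6 lowest.

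Some members, core ribosomal proteins among them, were at or near 0. Rpl26, a core protein of the large subunit, had no count in any library, and the testis gene Rpl10l had none either. A count of 0 allows up to 3 counts, which is 0.117 to 0.16 CPM in these libraries and covers counting error only. Rpl30 had at most 2 counts in a library. Rpl34 had 5, 12 and 4 counts in knockout 1, 2 and 3 and 2, 8 and 7 in heterozygous 1, 2 and 3. Rps27 stood at 0.224, 0.546 and 0.508 CPM in the knockout-labelled and 0.213, 0.756 and 0.646 CPM in the heterozygous-labelled libraries, although it entered the test. These rows show what was counted and not how much of the mRNA the tissue held.

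Sequence shared with other genes was common among the members. Of 81 members, 78 had at least 1 stretch of 50 transcript bases that also occurs in another annotated transcript (GENCODE M21), and 77 shared such a stretch with an annotated pseudogene. The median member had 57.4% of its 50-base windows in common with another gene, and 41.4% of its 100-base windows. Windows were matched on either strand, and genes that overlap a member at its own locus were included, such as RPS10-NUDT3 for Rps10. Windows shared only with such a gene need not give a read several alignments. The share was 98.6% for Rps27, partly with its retrotransposed copy Rps27rt, which had no count, 76.4% for Rpl30, 50.6% for Rpl34 and 47.4% for Rpl26. Of 27 members with over 75% of windows shared, 23 had a mean of at least 50 CPM, as did 69 of all 81 members. Whether shared sequence lowered the count of any member was not tested. The sources used here do not give the authors' rule for reads with several alignments, so levels of the shared members are uncertain, and reads of this kind were a smaller share of the knockout-labelled libraries. Rpl3l and Rpl39l shared no window. Exons of 27 members overlap another gene on the same strand. Exons of 18 members overlap another gene on the opposite strand, which matters where strand was not used in counting.

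**Figure D3:**
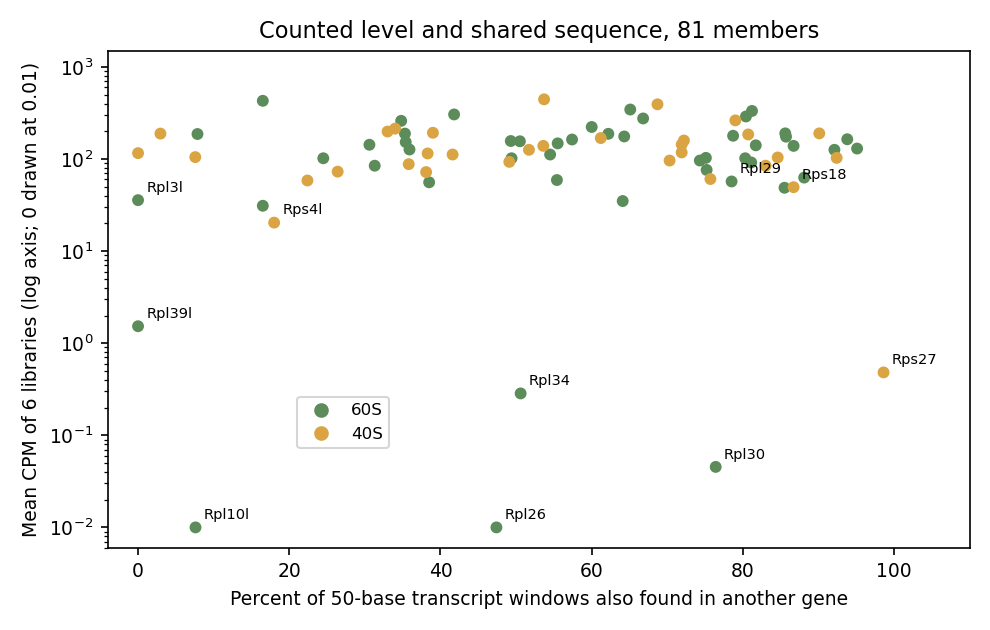
Each point is a member: the horizontal axis gives the percent of its 50-base transcript windows found in another annotated gene, the vertical axis its mean CPM over the 6 libraries on a log axis, with 0 drawn at 0.01. Rps27, Rpl30, Rpl34, Rpl26 and Rpl10l lie below 1 CPM, while most members with high sharing lie between 50 and 450 CPM.

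The comparison of the labels asks whether ribosomal protein mRNAs differ when FAM195A is labelled as lost. No member was called in either direction by edgeR's quasi-likelihood test (Benjamini-Hochberg adjusted p under 0.05 over 13300 genes), against 0.0526% of all tested genes called higher and 0.534% called lower. At an unadjusted p under 0.05 there was 1 of 77 members (1.30%), against 12.1% of all genes. That member was Rpl3l, which DESeq2 called, as the only member (5.78% of all genes were called by DESeq2), and limma-voom called none (1.46%). The members' median log2 fold change was 0.04, beside 0.02 for all genes, and 55 of 77 were positive, beside 53.1% of all genes. The p-values measure the spread between 3 mice per label.

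The precision was high for most members. The 95% interval of the log2 fold change lay within -0.5 to 0.5 for 55 of 77 members, as it did for 23.5% of all genes, and within -1 to 1 for 71. It reached a median of 0.364 to either side of the estimate, and 68 members had an estimate between -0.2 and 0.2. Without Rpl3l, the smallest adjusted p was 0.569. In no member did all 3 knockout-labelled libraries lie above all 3 heterozygous-labelled ones (8.11% of all genes), and in 1, Rpl3l, they all lay below (9.89%). The median of the members' log2 ratios was 0.06 among RF-titled libraries and 0.00 between the 2 with RE titles.

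**Figure D4:**
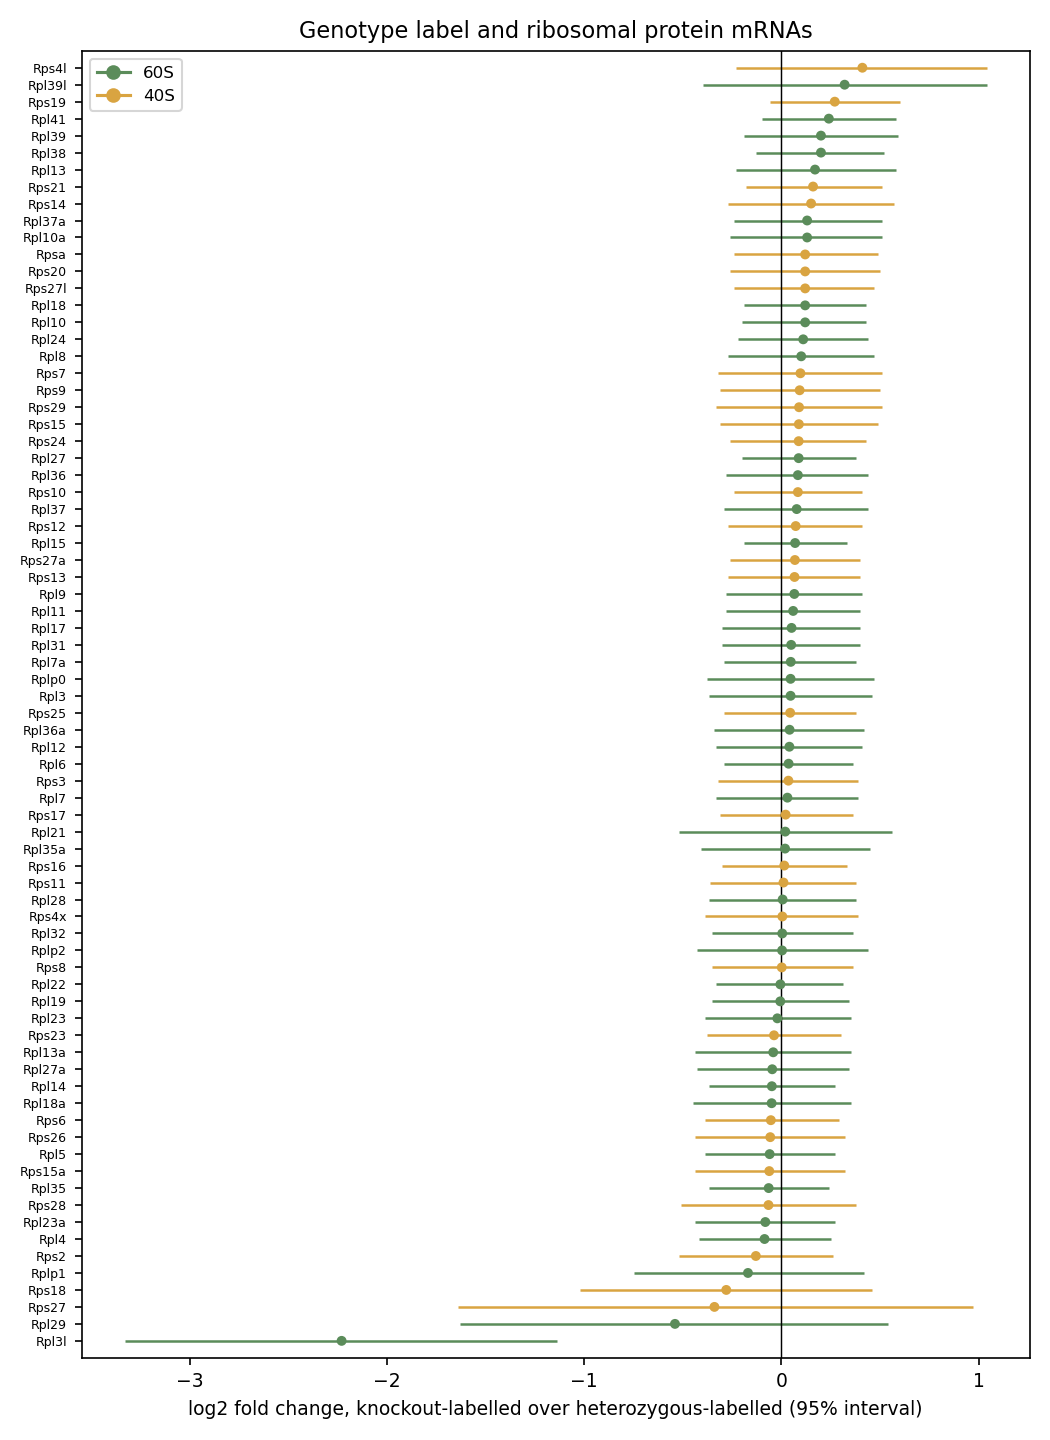
Log2 fold change, knockout-labelled over heterozygous-labelled, with its 95% interval for 76 of the 77 tested members, ordered by size (green large subunit, ochre small subunit). Apart from Rpl3l at -2.23, every interval includes 0, and most lie within -0.5 to 0.5.

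Rpl3l, the striated muscle paralog of Rpl3, differed most. It stood at 17.97, 11.47 and 8.214 CPM in knockout 1, 2 and 3 and at 26.41, 66.55 and 84.13 CPM in heterozygous 1, 2 and 3. The groups did not overlap, and the heterozygous-labelled libraries spread widely. The log2 fold change was -2.23 (SE 0.465, 95% interval -3.33 to -1.14), which did not pass (edgeR adjusted p = 0.0789). It passed by DESeq2 (adjusted p = 1.91e-05) and without heterozygous 1 (log2 -2.58, edgeR adjusted p = 0.0129), and over all alternatives the adjusted p ran from 1.91e-05 to 0.309 and the estimate from -2.58 to -1.66. Its log2 ratio was -1.63 among RF-titled libraries and -3.28 for the RE-titled pair, which has 1 library per label and no test.

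Muscle transcripts moved with it. All 26 skeletal muscle markers had a log2 fold change below 0, with a median of -2.21, and in all 26 the knockout-labelled libraries lay below the others, as in 9.89% of all genes. None was called by edgeR, although all 26 had an unadjusted p under 0.05 (12.1% of all genes). DESeq2 called 24 of them (5.78% of all genes), edgeR without heterozygous 1 called 24 (2.95% of all genes), and limma-voom called none (1.46%). Rpl3l amounted to 0.239%, 0.259% and 0.192% of the summed CPM of these markers in knockout 1, 2 and 3 and to 0.221%, 0.242% and 0.239% in heterozygous 1, 2 and 3. That share overlapped between the labels although Rpl3l itself did not. Myh4, which encodes a myosin of fast fibres, was at 1403, 709 and 811 CPM in the knockout-labelled libraries and 2427, 4796 and 6446 CPM in the heterozygous-labelled ones. The part of muscle in the Rpl3l difference was not tested.

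**Figure D5:**
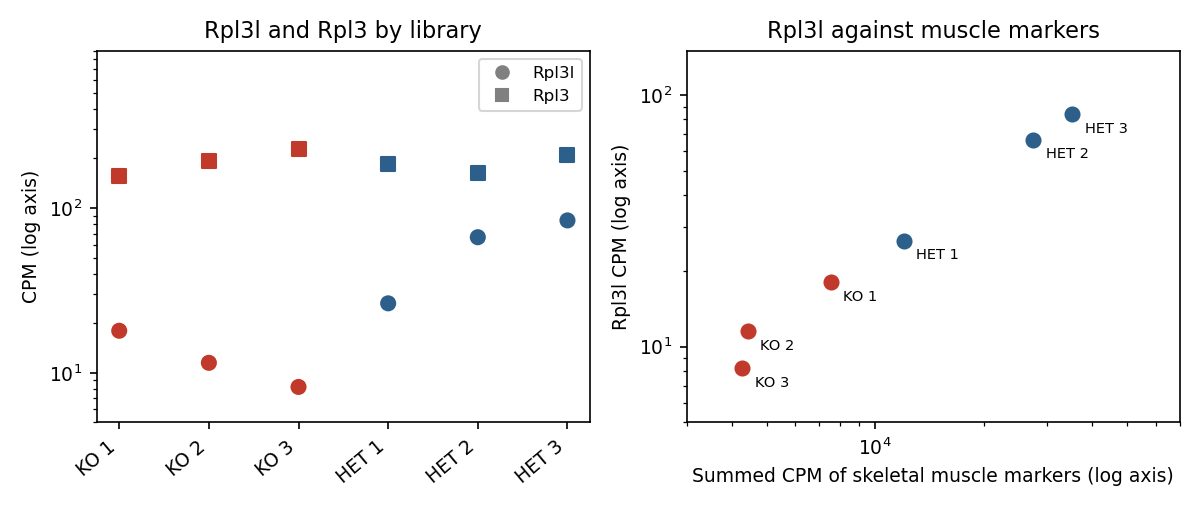
Left, CPM of Rpl3l (circles) and Rpl3 (squares) in each library on a log axis; right, Rpl3l against the summed CPM of 26 muscle markers, both on log axes (red knockout, blue heterozygous). Rpl3l follows the muscle sum, at 0.192% to 0.259% of it in every library, and Rpl3 overlaps between the labels.

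Rpl3, the ubiquitous partner near the ribosome's catalytic centre, stood at 156, 192 and 229 CPM in knockout 1, 2 and 3 and at 185, 164 and 211 CPM in heterozygous 1, 2 and 3 (log2 0.05, edgeR adjusted p = 0.968). Rpl3l therefore made up 10.3%, 5.62% and 3.46% of the Rpl3 and Rpl3l counts in the knockout-labelled libraries, against 12.5%, 28.9% and 28.5% in the heterozygous-labelled ones. The means were 6.46% ± 3.5 and 23.3% ± 9.37 (SD, n = 3 each), with an exact two-sided permutation p of 0.1, the smallest that 3 against 3 allows, and 0.3 when adjusted over the 3 paralog pairs with counts. For the testis paralog Rpl39l the share of the pair with Rpl39 overlapped between the labels, at 4.83% ± 1.02 and 4.57% ± 0.897 (exact permutation p = 0.9). Rps27l, which p53 induces, took 98.5% to 99.6% of its pair in every library because Rps27 was hardly counted.

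A stretch inside the Rpl3l gene, ahead of a downstream listed start, holds letters that fit the site of MEF2, a factor that drives muscle genes. Rpl3l has more than 1 listed start, and the match lies 123 bases before the downstream one. That start lies within the gene, annotated at chr17:24727820-24736143. The entry at the upstream start, where the annotated gene begins, held no match. It is in capitals in this stretch at chr17:24732517-24732616 on the plus strand (GRCm38.p6, RefSeq).
Rpl3l: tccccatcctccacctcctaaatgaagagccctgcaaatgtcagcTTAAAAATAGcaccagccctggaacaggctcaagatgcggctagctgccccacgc
No other of the 60 members in the table held such a match in its 300 bases (1.67% of members), while 2.48% of tested genes did. A match describes the letters and does not show that a factor binds.

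Among the other members, those with positive estimates and the smallest p were 3 of each subunit. Rps19, the small-subunit protein most often mutated in human Diamond-Blackfan anaemia, stood at 132.1, 166.6 and 156.5 CPM in knockout 1, 2 and 3 and at 129, 113.4 and 136 CPM in heterozygous 1, 2 and 3. Its groups overlapped through knockout 1, and its estimate was 0.27 on the log2 scale (SE 0.142, edgeR adjusted p = 0.569). Rpl41, a very small basic protein that bridges the subunits, was at 144.5, 190.4 and 161.1 CPM in the knockout-labelled and 144.5, 127.4 and 147.3 CPM in the heterozygous-labelled libraries (log2 0.24). Log2 fold changes were 0.41 for Rps4l, counted with the small subunit by its name but annotated as a processed pseudogene, 0.20 for Rpl38, which mouse Hox mRNAs need for their translation, 0.20 for Rpl39 of the exit tunnel and 0.16 for Rps21. None of these passed, and the edgeR adjusted p of Rps4l was 0.695. By size alone, Rpl39l at 0.32 (edgeR adjusted p = 0.822) came second after Rps4l, and Rpl13 at 0.17 lay above Rps21.

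After Rpl3l, the 3 estimates furthest below 0 belonged to Rpl29, Rps27 and Rps18. With Rpl3l, these lay farthest from the members' median deviations, summed over the libraries. Rpl29 kept the sign of that median in every library but swung more widely, from -1.16 in knockout 1 to 0.61 in knockout 2. Rpl29 was counted at 18.1, 61.9 and 59.3 CPM in knockout 1, 2 and 3 and at 55.3, 52.6 and 95.1 CPM in heterozygous 1, 2 and 3. Its knockout 1 value stood well below the other libraries, and its coefficient of variation of 43.0% was, after Rpl3l, the largest among the members of at least 10 CPM (log2 -0.54, SE 0.46, edgeR adjusted p = 0.786). Rpl29 shares windows with 84 other genes, 81 of them pseudogenes. Rps18, a protein of the head of the small subunit, was at 58.78, 37.18 and 38.16 CPM in the knockout-labelled and 31.9, 60.04 and 70.84 CPM in the heterozygous-labelled libraries. It was highest where most members were lowest among the knockouts, and 86.7% of its windows are shared (log2 -0.28, edgeR adjusted p = 0.87; 0.06 among RF-titled libraries and -0.88 for the RE-titled pair). Rplp1 had a log2 fold change of -0.17 and a coefficient of variation of 22.6%, and Rps2 had -0.13. Rps27, at under 1 CPM, had -0.34 with an interval of -1.64 to 0.97.

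The 5 steadiest members were 4 proteins of the large subunit and 1 of the small. Rpl15 stood at 77.6, 79.4 and 76.9 CPM in knockout 1, 2 and 3 and at 70.68, 72.65 and 79.7 CPM in heterozygous 1, 2 and 3, a coefficient of variation of 4.85%. Rpl27 (6.88%), Rpl35 (7.66%), Rps16 (8.34%) and Rpl14 (8.49%) followed. Rpl15 and Rpl35, picked here for their low variation, are among the genes whose start sites are printed above. Of the same 5 members, Rpl27 and Rps16 had no run in the searched window, and Rpl14 had a run of 14 bases. Of the other printed genes with a run, Rpl7a (8.84%) and Rpl4 (8.89%) lay below the member median of 12.2% and Rpl27a (13.1%) above it. Rplp0, printed without a run, had 14.8%. A link between runs and variation was not tested.

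Members with further known roles did not pass either. Rpl5 and Rpl11, which bind 5S rRNA and can hold back Mdm2, had log2 fold changes of -0.06 (95% interval -0.39 to 0.27) and 0.06 (-0.28 to 0.40). Rps6, the small-subunit protein that S6 kinases phosphorylate, stood at 89.8, 98.8 and 118 CPM in knockout 1, 2 and 3 and at 104, 97.85 and 116 CPM in heterozygous 1, 2 and 3 (log2 -0.05). Rpl13a had -0.04 and Rps27a, made as a fusion with ubiquitin, 0.07. Rpl32 (0.00) and Rpl19 (-0.01), often used as reference genes, lay at 0, as did Rps4x (0.00) and Rpl22 (-0.01). Rplp0 stood at 257, 308 and 364 CPM in the knockout-labelled and 264, 284 and 352 CPM in the heterozygous-labelled libraries (log2 0.05). Rpsa, the small-subunit protein also known as a laminin receptor, was at 0.12, and Rpl10, which completes the large subunit, at 0.12.

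The genes that build ribosomes and control TOP mRNAs were described beside the members. None was called by edgeR (0.586% of all genes were). DESeq2 and limma-voom each called 1, Imp4, where they called 5.78% and 1.46% of all genes. Of 15 genes of RNA polymerase I and its factors, 14 had positive estimates (53.1% of all genes did; median log2 fold change 0.10), and none reached an unadjusted p of 0.05, as 12.1% of all genes did. The 20 tested genes of the small-subunit processome and rRNA modification had a median of 0.02, the 11 of 40S maturation 0.17 and the 20 of 60S maturation 0.04. At an unadjusted p under 0.05 there were 1, 0 and 1 of these genes (5%, 0% and 5%, against the same 12.1%). The 19 other TOP mRNAs had a median of 0.05, with 1 gene under that p (5.26%).

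Within those lists, Imp4, a processome protein that helps fold the pre-rRNA, came closest. It stood at 22.7, 24.9 and 19.7 CPM in knockout 1, 2 and 3 and at 39.3, 38.2 and 35.8 CPM in heterozygous 1, 2 and 3. The groups lay well apart (log2 -0.75, SE 0.137, edgeR adjusted p = 0.0719), and Imp4 was called by DESeq2 (adjusted p = 0.000341), limma-voom (adjusted p = 0.0307) and edgeR with the title prefix as a covariate (adjusted p = 0.0171), while over single libraries left out the edgeR adjusted p was 0.0947 to 0.228. Gnl3, nucleostemin, a factor of 60S maturation, had 0.38 (edgeR adjusted p = 0.339). Gas5, a TOP transcript that hosts small nucleolar RNAs, had 0.44 (edgeR adjusted p = 0.378).

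Of 18 genes listed under mTORC1 and LARP control, 4 had an unadjusted p under 0.05 (22.2%, against 12.1% of all genes). The median log2 fold change of the list was 0.05. The list is wider than mTORC1 and the LARP proteins, as it also holds Max, which is among the 4 (log2 0.31). The share of 22.2% therefore describes the list and not mTORC1 and LARP genes alone. Eif4ebp1, the translation repressor that mTORC1 inactivates, stood at 207, 234 and 222 CPM in the knockout-labelled and 173, 175 and 159 CPM in the heterozygous-labelled libraries. The groups did not overlap, but the gene did not pass (log2 0.39, SE 0.121, edgeR adjusted p = 0.217). Larp1 itself had -0.13. The 14 chaperones and quality-control genes had a median of 0.13, with Mdm2 at 0.31 (edgeR adjusted p = 0.302) and Usp10, a deubiquitinase of stalled 40S subunits, at 1.13 (edgeR adjusted p = 0.303). Usp10 was at 73.7, 57.9 and 183 CPM in knockout 1, 2 and 3 and at 48.9, 46.1 and 48.4 CPM in heterozygous 1, 2 and 3, with 1 library far above the rest. Without knockout 3 the log2 fold change was 0.45 (edgeR adjusted p = 0.213).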

How the data were processed

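Read counts for each gene symbol were deposited by the authors in 1 table with a column per library; its 5 closing HTSeq lines were left out. Per the submitters' processing notes, HTSeq, STAR 2.7.2b, SAMtools 1.9, edgeR, Bowtie2 2.3.4.3, Trim Galore and mm10 were used, with no roles stated; strandedness and annotation were not found in the sources used here. Groups came from the genotype labels, and replicate numbers, given in accession order, pair nothing. Counts were tested with edgeR 4.0.16 (R 4.3.3; TMM, filterByExpr with a minimum count of 10, robust quasi-likelihood F test), with Benjamini-Hochberg adjustment over 13300 genes. DESeq2 1.42.0 and limma-voom (limma 3.58.1) were alternatives, and the test was checked on simulated data. Per-library deviations used log2 CPM with a prior count of 2, and within-prefix ratios added 0.5 CPM. GENCODE M21 (GRCm38), matched by all 81 members, gave transcript lengths and shared windows. The annotation used for counting may differ. For each gene a coding transcript was taken where there was any. Those tagged as alternative by APPRIS, a rating of isoforms, came before those tagged as principal. Ties went to the basic set and then to the shortest. Members and gene lists were chosen with earlier results of these data known. Named were a set of well-known members, members at the extremes of level per kb, p, variation and distance from the common deviation, the 2 smallest p in each direction per list, Myh4 and Fam195a; not every gene so picked is described, and some items are not reported here. Rpl7a, Rpl27a, Rpl4, Mdm2 and the sequences shown were picked with values seen where that rule does not name them. All pairs of libraries within a label differed by more than sampling noise (chi-square divided by its degrees of freedom 39.3 to 126).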

Additional observations from a re-analysis of the deposited data

How the results depend on the processing

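The count of members called lower, 0 by edgeR, was 1 (Rpl3l) by DESeq2, at an adjusted p of 0.1 and without heterozygous 1, so that leaving out single libraries gave 0 to 1. The small-subunit processome list held 1 gene called lower (Imp4) with the title prefix as a covariate, by DESeq2, by limma-voom and at an adjusted p of 0.1. The median of the chaperone and quality-control list, 0.13, ranged from 0.05 without knockout 2 (0.07 without heterozygous 3) to 0.18 without heterozygous 2. The difference in the Rpl39l share, 0.261 percentage points, ranged from -0.131 without knockout 2 to 0.836 over single libraries left out, and was -0.104 without heterozygous 3. With exon unions as lengths, 3 of the 6 highest members stayed. The members' median log2 fold change, 0.04, ranged from -0.03 to 0.14 over single libraries left out and was -0.02 scaled by library size only. Over 92 named genes and 15 alternatives, 1261 of 1377 values kept direction and call, 98 changed sign in genes called in neither setting, and 18 changed a call. The cause of these changes was not tested. No paired analysis was possible because the labels give the groups no shared replicate numbers. Shared sequence limits the levels of many members, and 3 mice per label limit the power.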

Other observations

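Some ribosomal proteins lie outside the naming rule, and the labels overlapped in those described here. Fau, which encodes a small-subunit protein fused to a ubiquitin-like domain, stood at 82.1, 113 and 92.5 CPM in the knockout-labelled and 99.4, 89.8 and 106 CPM in the heterozygous-labelled libraries. Rps3a1 of the small subunit was at 119, 143 and 172 CPM in the knockout-labelled and 146, 205 and 182 CPM in the heterozygous-labelled libraries (log2 fold change -0.30, edgeR adjusted p = 0.667). Gnb2l1, the older symbol of the 40S scaffold Rack1, was at 147, 173 and 186 CPM in the knockout-labelled and 154, 156 and 181 CPM in the heterozygous-labelled libraries. The 7 processed pseudogene (-ps) symbols of members in the table summed to 140, 200 and 123 counts in knockout 1, 2 and 3 and to 141, 142 and 132 counts in heterozygous 1, 2 and 3, and 3 of them had no count.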
